A study of Mus musculus with 6 samples.

Results

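The genes described are 30 genes of the G1/S transition and of DNA replication, chosen by gene symbol. A row was found for 28 of them among the 44804 rows of the expression table that carry a unique gene name. *Gins2* and *Cdt1* were not analysed here. Transcripts were measured in 3 circulating tumor cells (CTCs), tumor cells recovered from blood, and in 3 tumor cells, with 1 cell of each kind from mice 1157, 1168 and PDGF1. The titles of the tumor cell libraries carry the abbreviation GBM, the source label calls only the CTCs single cells, and the series text counts 6 single cells. Strain, age, genotype, any transgene or treatment and the site of the tumor are not given in the labels, so the groups are known only as CTC and tumor cell. The comparison asked how the transcripts of the CTC group differ from those of the tumor cell group.

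Entry into S phase is controlled by E2F transcription factors, which the retinoblastoma protein holds back until cyclin-dependent kinases phosphorylate it. Released E2F raises transcription of cyclin E, of the licensing factors that load the MCM helicase onto origins, and of the polymerase accessory factors and nucleotide enzymes that copy DNA. Transcripts of these genes peak around the G1/S transition in dividing cells and are low in resting cells, so the set is widely used to score S phase in single cells. Glioma cells of the oligodendrocyte lineage divide, whereas most mature brain cells do not.

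Many S phase genes carry E2F words in their promoters, and 5 promoters that hold one are shown because they belong to genes whose values in mouse 1168 range from lower in the CTC (*Cdc6*) through a difference under 1 on the log2 scale (*Mcm3*, *Mcm5* and *Mcm6*) to higher (*Mcm7*). Promoter windows are from RefSeq on GRCm38.p6 and run from 250 bases before to 50 bases after the RefSeq transcription start, 5′ to 3′ on the strand of the gene. Capitals mark any of the words TTTCCCGC, TTTCGCGC, TTTGCCGC or TTTGGCGC read on either strand.
Mcm3 promoter, chr1:20820263-20820562, minus strand: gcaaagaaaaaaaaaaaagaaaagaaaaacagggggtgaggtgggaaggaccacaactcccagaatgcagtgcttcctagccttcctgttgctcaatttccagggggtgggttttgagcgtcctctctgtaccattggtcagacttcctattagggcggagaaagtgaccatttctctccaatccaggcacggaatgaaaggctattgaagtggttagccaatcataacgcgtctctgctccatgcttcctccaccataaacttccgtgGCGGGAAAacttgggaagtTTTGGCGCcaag
Mcm5 promoter, chr8:75109259-75109558, plus strand: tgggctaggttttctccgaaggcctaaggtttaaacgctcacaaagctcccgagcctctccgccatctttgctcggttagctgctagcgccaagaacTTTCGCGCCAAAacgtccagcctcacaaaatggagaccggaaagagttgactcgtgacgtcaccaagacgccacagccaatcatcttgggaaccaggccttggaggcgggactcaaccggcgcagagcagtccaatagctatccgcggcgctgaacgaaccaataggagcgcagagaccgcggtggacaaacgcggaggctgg
Mcm6 promoter, chr1:128359656-128359955, minus strand: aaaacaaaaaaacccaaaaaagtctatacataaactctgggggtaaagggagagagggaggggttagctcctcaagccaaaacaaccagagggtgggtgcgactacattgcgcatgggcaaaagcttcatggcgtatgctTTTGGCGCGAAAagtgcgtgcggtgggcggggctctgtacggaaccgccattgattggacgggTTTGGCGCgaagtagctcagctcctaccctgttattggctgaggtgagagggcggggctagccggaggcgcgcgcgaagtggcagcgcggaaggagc
Mcm7 promoter, chr5:138171834-138172133, minus strand: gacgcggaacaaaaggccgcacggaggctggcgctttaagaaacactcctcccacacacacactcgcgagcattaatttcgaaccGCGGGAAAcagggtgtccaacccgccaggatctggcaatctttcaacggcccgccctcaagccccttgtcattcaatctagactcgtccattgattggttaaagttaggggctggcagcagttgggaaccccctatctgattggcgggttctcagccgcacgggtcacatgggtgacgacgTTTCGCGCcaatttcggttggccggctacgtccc
Cdc6 promoter, chr11:98907901-98908200, plus strand: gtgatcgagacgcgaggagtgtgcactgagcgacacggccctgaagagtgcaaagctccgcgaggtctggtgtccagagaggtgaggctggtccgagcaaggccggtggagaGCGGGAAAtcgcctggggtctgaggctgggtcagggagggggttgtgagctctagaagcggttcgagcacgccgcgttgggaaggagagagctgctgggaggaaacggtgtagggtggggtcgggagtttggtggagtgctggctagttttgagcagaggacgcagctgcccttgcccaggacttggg
In *Mcm5* and in *Mcm6*, 2 words on opposite strands overlap, starting at -153 and -149 and at -110 and -106 relative to the transcription start. In *Mcm3* the words start at 20 and 39, within the transcribed part of the window. *Mcm7* has a second window, which holds no such word. Of the 28 genes, 24 had a window, and 10 of these 24 (41.7%) held an E2F word: *Mcm3*, *Mcm5*, *Mcm6*, *Mcm7*, *Cdc6*, *Dtl*, *Pold3*, *Uhrf1*, *Hells* and *Cdca7*. The same words were in the windows of 575 of 17491 protein-coding genes (3.29%), and in 5.59% of the protein-coding genes with at least as many CpG dinucleotides as the median replication gene window. The word TTTGAA, the core of the cell cycle homology region (CHR) found in genes of G2 and mitosis, was in 3 of 24 windowed replication genes (12.5%), against 18.5% of protein-coding genes. Among mitosis genes it was in 15 of 22 (68.2%), while an E2F word was in 2 of 22 (9.09%). The windows of *E2f1*, *Cdc6* and *Mcm7* lie wholly within the gene as GENCODE M21 annotates it, as does the *Uhrf1* window that held a word. Bases before the outermost annotated start of *E2f1*, *Cdc6* and *Mcm7* were therefore not scanned. A match describes the letters of the window only, and binding was not measured.

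**Figure D1:**
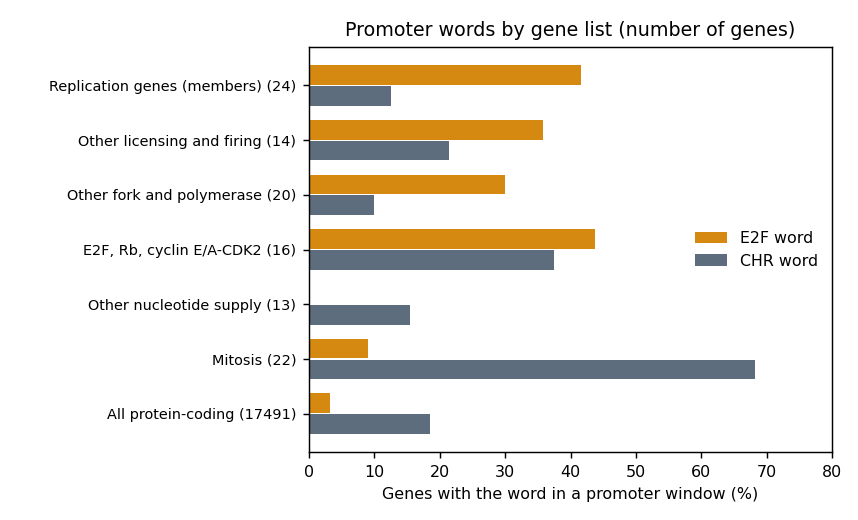
Share of genes, in percent, with an E2F word or a CHR word in a RefSeq promoter window, by gene list, with the number of genes that have a window in brackets. Replication genes held E2F words in 41.7% of genes and CHR words in 12.5%, and mitosis genes in 9.09% and 68.2%.

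The values are FPKM, fragment counts divided by transcript length and library size, as the authors deposited them. Whether amplified fragments cover transcripts evenly was not tested, so ratios between genes are ratios of FPKM and may not equal ratios of transcripts. Depth was estimated from the most frequent product of FPKM and length over genes with 1 transcript, of more than 1500 bases. Taking this product as 1 fragment gave 24900000 to 39800000 fragments in the CTCs and 10600000 to 51400000 in the tumor cells. By this estimate, 1 fragment on a transcript of 2500 bases is worth 0.0101 to 0.0161 FPKM in the CTCs and 0.00779 to 0.0377 FPKM in the tumor cells. A value of 1 FPKM then rests on many fragments in every cell. Both cells of mouse 1168 stand apart from the other 4. In mouse 1168, 40.1% of protein-coding genes reached 1 FPKM in the CTC and 46.3% did so in the tumor cell, compared with 4.58% to 9.68% in the other CTCs and 9.78% to 15% in the other tumor cells. Markers of oligodendrocyte progenitors and glioma cells reached 1 FPKM for 4, 10 and 0 of 10 genes in CTCs 1157, 1168 and PDGF1 (each named by its mouse), against 4, 9 and 1 of 10 in the tumor cells. Hemoglobin and other erythroid markers summed to at most 0.182 FPKM in any cell. As a gauge of background, receptor genes of the nose (olfactory and vomeronasal) had a 99th percentile of 0.885, 0.167 and 4.03 FPKM in the 3 CTCs, in the same order of mice, against 1.58, 1.52 and 7.02 FPKM in the tumor cells. A replication gene at 1 FPKM is therefore below the upper end of these receptor genes in 4 of the 6 cells.

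Replication transcripts were broadly present in mouse 1168 and sparse in mice 1157 and PDGF1. Of the 28 genes, 8, 20 and 1 reached 1 FPKM in CTCs 1157, 1168 and PDGF1, against 4, 28 and 5 in the tumor cells. Their median was 0.279, 3.57 and 0.0795 FPKM in the CTCs, against 0.257, 10.3 and 0.111 FPKM in the tumor cells. The 28 values summed to 23.3, 309 and 10.9 FPKM in the CTCs, against 30.3, 411 and 23.1 FPKM in the tumor cells. The sums of both cells of mouse 1168 were thus far above those of the other 4 cells. Single genes made up much of the sum in the sparse cells. *Gmnn* was 58.1% of it in the CTC of mouse PDGF1, *Pold3* 57.4% in the tumor cell of mouse PDGF1, *Rpa2* 54.2% in the tumor cell of mouse 1157 and *Hells* 25.8% in the CTC of mouse 1157. In mouse 1168 the leading gene was *Pcna* in both cells, at 28.5% of the sum in the CTC, compared with 34.7% in the tumor cell.

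**Figure D2:**
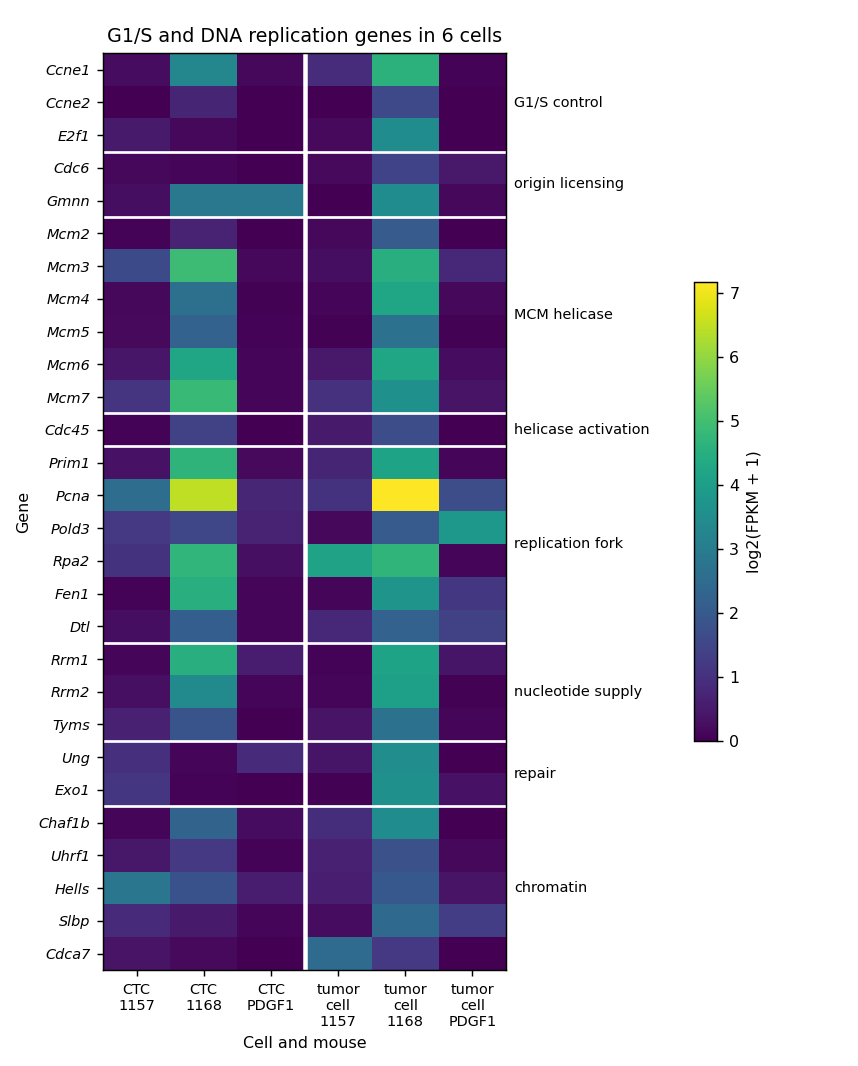
Level of the 28 replication genes as log2(FPKM + 1), by color, with 1 column for each of the 3 CTCs and the 3 tumor cells and genes ordered by role. The 2 columns of mouse 1168 are the brightest, with 20 of 28 genes at 1 FPKM or more in the CTC and all 28 in the tumor cell.

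Across the 3 CTCs and 3 tumor cells, no replication gene passed the test. limma was run on log2(FPKM + 1) over 4165 genes that reached 1 FPKM in 3 or more cells, with p-values adjusted by Benjamini-Hochberg and called under 0.05, and it called 0 of them (0%). Without adjustment, 7 of the 4165 genes and 0 replication genes had a p under 0.05. Of the 28 genes, 9 passed the filter on low values (*Gmnn*, *Mcm3*, *Mcm7*, *Pcna*, *Pold3*, *Rpa2*, *Fen1*, *Dtl* and *Hells*), and 19 did not and were not tested. Among the 9, the log2 difference, CTC minus tumor cell, was positive in 4 and negative in 5 and ran from -0.97 to 0.79. In this fit, which leaves out the mouse and gives every SE quoted below, the SE ran from 1.04 to 3.22. It was larger than the difference in each of the 9, and the adjusted p was 0.9999 for each. With the mouse as a block, the differences stayed the same and the SE ran from 0.653 (*Dtl*) to 1.21 (*Pcna*). It was then smaller than the difference for *Gmnn*, *Pold3*, *Dtl* and *Hells*, and the lowest adjusted p among the 9 was 0.966 in limma. No tested replication gene had its 3 CTC values all above or all below the 3 tumor cell values, which 65 of the 4165 genes did (1.56%), 11 above and 54 below. A p above the threshold does not show that the groups are alike, since these errors would hide differences of several fold.

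In mouse 1168 several G1/S, licensing, helicase, repair and chromatin genes were lower in the CTC than in the tumor cell, while no fork or nucleotide supply gene differed by as much as 1 on the log2 scale. Within a mouse there is 1 cell of each kind, so these are values without a test or a replicate. A gene was counted as measured in a mouse where either cell reached 1 FPKM, and as higher or lower where log2(FPKM + 1) differed by at least 1. All 28 genes were measured in mouse 1168, and 1 was higher and 10 were lower in the CTC. Over all 12396 genes measured there, 22.7% were higher and 24.9% lower, against 3.57% and 35.7% of the replication genes. Whether these shares differ was not tested, so they describe the 2 libraries of this mouse only. The median difference was -0.64 for the replication genes and 0.04 for all genes. The 10 were *E2f1*, *Ccne1*, *Cdc6*, *Mcm2*, *Mcm4*, *Ung*, *Exo1*, *Chaf1b*, *Slbp* and *Cdca7*. Of these, only *Ccne1*, *Mcm4* and *Chaf1b* reached 1 FPKM in the CTC too. The others counted as measured only through the tumor cell, so their directions follow in part from that filter.

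**Figure D3:**
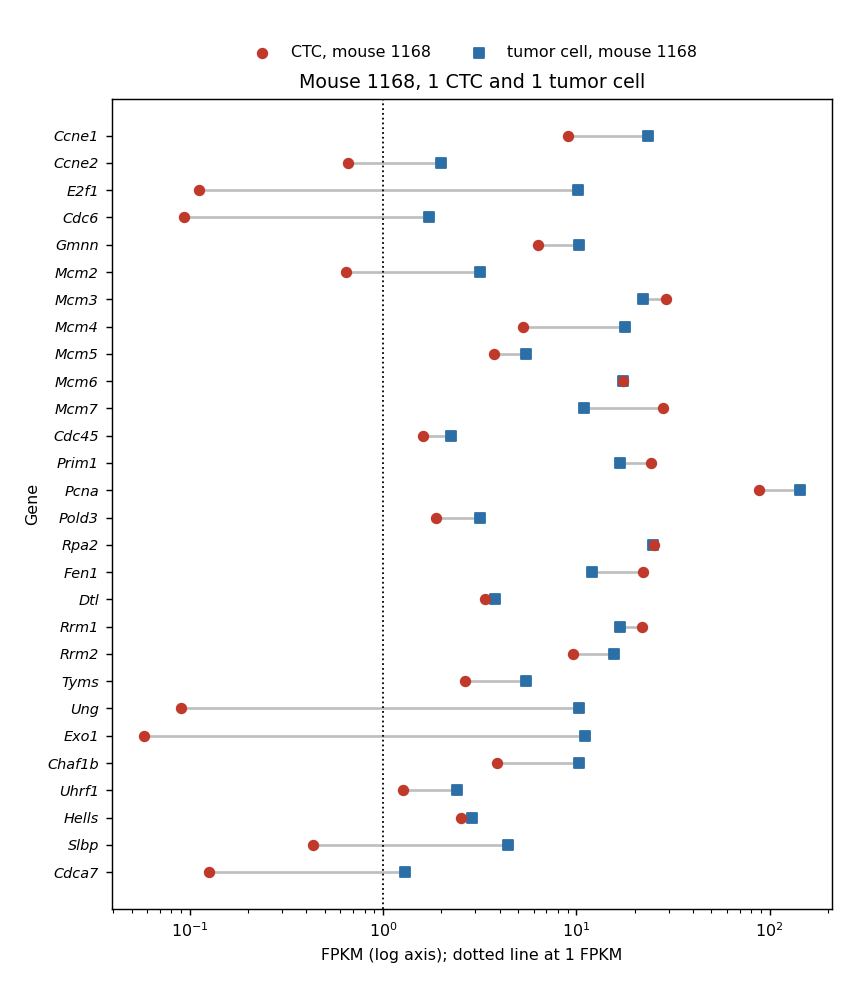
FPKM of the 28 replication genes, on a log axis, in the CTC (red circles) and the tumor cell (blue squares) of mouse 1168, joined by a grey line, with a dotted line at 1 FPKM. *E2f1*, *Cdc6*, *Ung*, *Exo1* and *Cdca7* lie below 0.167 FPKM in the CTC, while *Rpa2* and *Mcm6* nearly coincide.

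The G1/S control genes were lower in the CTC of mouse 1168 or scarce in both cells. *E2f1*, the transcription factor that activates S phase genes, had 0.445, 0.112 and 0.0183 FPKM in CTCs 1157, 1168 and PDGF1, against 0.134, 10.1 and 0.00953 FPKM in the tumor cells. One value, that of the tumor cell of mouse 1168, was far above the other 5, and the remaining values of the groups overlap. In mouse 1168 the *E2f1* value corresponded to an estimated 9.0 fragments in the CTC and 1434 fragments in the tumor cell, a 90.8-fold lower FPKM in the CTC. *Ccne1*, which encodes cyclin E1, the partner of CDK2 at the G1/S transition, had 0.190, 9.03 and 0.119 FPKM in the CTCs, against 0.863, 23.3 and 0.0537 FPKM in the tumor cells. Its difference was -1.28 on the log2(FPKM + 1) scale in mouse 1168, and below 1 in size in the other mice. *Ccne2*, which encodes cyclin E2, reached 0.658 FPKM in the CTC and 1.98 FPKM in the tumor cell of mouse 1168 and was listed at 0 in the other 4 cells. The FPKM of *Ccne1* was 13.7 times that of *Ccne2* in the CTC of mouse 1168 and 11.8 times in the tumor cell.

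The licensing genes differed from each other. *Cdc6*, the ATPase that loads the MCM helicase at origins, had 0.121, 0.0926 and 0.00980 FPKM in the CTCs, against 0.135, 1.73 and 0.411 FPKM in the tumor cells. Its CTC values were all below its tumor cell values, but it reached 1 FPKM in 1 cell only and was not tested. The closest pair, 0.121 and 0.135 FPKM in mouse 1157, rests on an estimated 14.5 and 6.89 fragments. *Gmnn* encodes geminin, which binds the licensing factor CDT1 and blocks relicensing in S phase and G2. It had 0.214, 6.29 and 6.32 FPKM in CTCs 1157, 1168 and PDGF1, against 0, 10.3 and 0.109 FPKM in the tumor cells. Geminin was the gene of highest FPKM in the set in the CTC of mouse PDGF1, with an estimated 283 fragments, and the only one there at 1 FPKM or more. Its difference was 2.72 in mouse PDGF1 and -0.63 in mouse 1168, and 0.79 (SE 1.55) over the 6 cells.

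The MCM helicase unwinds DNA as a ring of 6 different subunits, *Mcm2* to *Mcm7*. In mouse 1168 the 6 transcripts summed to 84.2 FPKM in the CTC and 77.2 FPKM in the tumor cell, but the subunits were less even in the CTC. *Mcm3* was the highest and *Mcm2* the lowest in both cells, 45.0 times apart in the CTC, against 7.0 times in the tumor cell. This was not so in the other mice, where most subunits lay under 1 FPKM. There the highest and lowest subunits were 44.6 times apart in CTC 1157 and 39.3 times in tumor cell 1157. In mouse PDGF1 they were 7.84 times apart in the CTC and 99.6 times in the tumor cell. *Mcm2* had 0.645 FPKM in the CTC of mouse 1168 and 3.17 FPKM in the tumor cell, and *Mcm4* had 5.31 FPKM and 17.9 FPKM, so both were lower in the CTC. *Mcm7* was higher there, with 27.9 FPKM in the CTC and 11 FPKM in the tumor cell, the single gene of the 28 counted as higher. *Mcm6*, at 17.5 FPKM in both cells, *Mcm3*, at 29.1 FPKM in the CTC and 22.2 FPKM in the tumor cell, and *Mcm5*, at 3.76 FPKM and 5.47 FPKM, differed by less than 1 on the log2 scale.
Over the 6 cells, *Mcm3* had 2.05, 29.1 and 0.114 FPKM in CTCs 1157, 1168 and PDGF1, against 0.212, 22.2 and 0.760 FPKM in the tumor cells, a difference of 0.35 (SE 2.0). *Mcm7* had 1.10, 27.9 and 0.0876 FPKM in the CTCs, against 1.04, 11 and 0.299 FPKM in the tumor cells, a difference of 0.35 (SE 1.79). For both genes the groups overlap. Exons of *Mcm7* overlap those of *Ap4m1* and *Cops6* on the other strand and hold the miRNA genes *Mir25* and *Mir93* on the same strand. The sources used here do not say whether the FPKM were computed with regard to strand, so fragments of these genes may not have been told apart. Outside mouse 1168 the MCM sum was 3.78 and 0.391 FPKM in CTCs 1157 and PDGF1, against 1.88 and 1.37 FPKM in the tumor cells. *Cdc45*, which joins MCM and GINS in the active helicase, had 1.61 FPKM in the CTC and 2.25 FPKM in the tumor cell of mouse 1168 and at most 0.425 FPKM elsewhere.

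**Figure D4:**
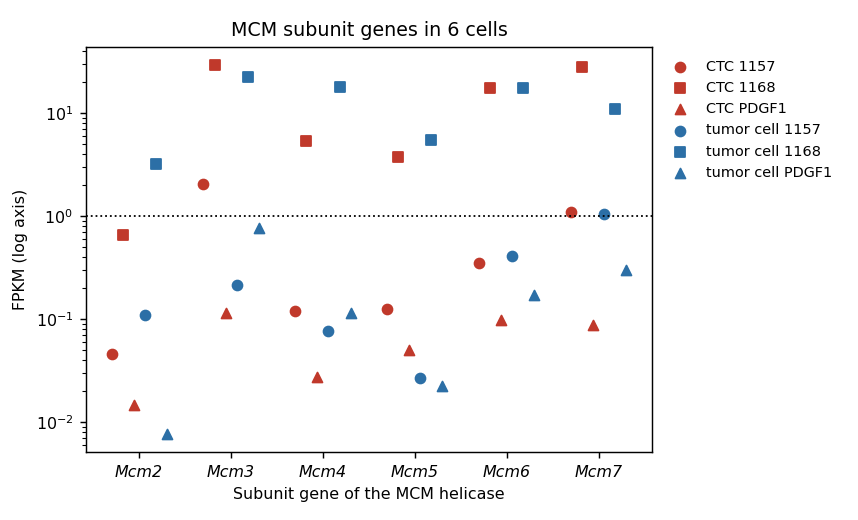
FPKM of the 6 MCM subunit genes, on a log axis, in the CTCs (red) and tumor cells (blue), with 1 marker shape for each mouse and a dotted line at 1 FPKM. In mouse 1168 (squares) *Mcm2* and *Mcm4* lie lower and *Mcm7* higher in the CTC, and the other mice lie mostly under 1 FPKM.

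None of the 6 replication fork genes was counted as higher or lower in mouse 1168, where their median difference was -0.06. *Pcna* encodes the sliding clamp that tethers DNA polymerase, and had the highest FPKM of the 28 genes in both cells of mouse 1168. It had 4.93, 88.0 and 0.721 FPKM in CTCs 1157, 1168 and PDGF1, against 1.09, 143 and 2.24 FPKM in the tumor cells, a difference of -0.03 (SE 3.22). *Rpa2*, a subunit of the protein that coats single-stranded DNA, had 1.06, 25.1 and 0.215 FPKM in the CTCs, against 16.4, 25 and 0.0898 FPKM in the tumor cells, a difference of -0.97 (SE 2.44). The *Rpa2* difference lay in mouse 1157 (-3.08), while the cells of mouse 1168 were level. *Fen1*, the nuclease that trims Okazaki fragments, had 0.0576, 22.1 and 0.0601 FPKM in the CTCs, against 0.0907, 12.1 and 1.22 FPKM in the tumor cells, a difference of -0.10 (SE 1.56). Its exons overlap those of *Tmem258* and *Gm10143* on the other strand, and those of *Cdc45*, *Ccne2* and *Slbp* overlap *Ufd1*, *Ints8* and *Gm10459*, also on the other strand. The libraries were stranded, per the labels' protocols, and these levels are uncertain only if strand was not used in the counting.
*Pold3*, an accessory subunit of DNA polymerase delta, had 1.30, 1.87 and 0.649 FPKM in the CTCs, against 0.119, 3.18 and 13.3 FPKM in the tumor cells, a difference of -0.87 (SE 1.53). The high value was that of the tumor cell of mouse PDGF1, an estimated 1540 fragments, and the direction differed between mouse 1157 (1.04) and mouse PDGF1 (-3.11). *Dtl*, the substrate receptor of the ubiquitin ligase that degrades CDT1 on chromatin, had 0.193, 3.38 and 0.0681 FPKM in the CTCs, against 0.756, 3.79 and 1.64 FPKM in the tumor cells, a difference of -0.66 (SE 1.04). It was below the tumor cell of the same mouse in all 3 mice, by 0.56, 0.13 and 1.30 on the log2 scale, though the groups overlap. *Prim1*, the catalytic subunit of primase, had 24.2 FPKM in the CTC and 16.9 FPKM in the tumor cell of mouse 1168, and at most 0.661 FPKM elsewhere.

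Nucleotide supply genes were likewise within the threshold in mouse 1168. *Rrm1*, the large subunit of ribonucleotide reductase, had 21.9 FPKM in the CTC and 16.8 FPKM in the tumor cell of mouse 1168, and its small subunit *Rrm2* had 9.56 FPKM and 15.7 FPKM. The ratio of *Rrm1* to *Rrm2* was 2.29 in the CTC, compared with 1.07 in the tumor cell. *Tyms*, which encodes thymidylate synthase, had 2.65 FPKM in the CTC and 5.49 FPKM in the tumor cell of mouse 1168. The 3 genes stayed under 1 FPKM in the other 4 cells. Pseudogenes named after *Pcna* and *Tyms* exist, and the sources used here do not say how fragments that match both were assigned.

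The repair genes *Ung* and *Exo1* showed the largest differences of the set in mouse 1168. *Ung*, the glycosylase that removes uracil from DNA, had 1.01, 0.0902 and 0.829 FPKM in CTCs 1157, 1168 and PDGF1, against 0.326, 10.4 and 0.0167 FPKM in the tumor cells. *Exo1*, an exonuclease of mismatch repair and of DNA end resection, had 1.19, 0.0580 and 0.00915 FPKM in the CTCs, against 0.0336, 11.1 and 0.274 FPKM in the tumor cells. For both genes the tumor cell of mouse 1168 was above every other cell, and the other values overlap between groups. The FPKM was 115-fold lower for *Ung* and 191-fold lower for *Exo1* in the CTC of mouse 1168, on an estimated 8.17 and 13.2 fragments in the CTC against 1650 and 4438 in the tumor cell. In mouse 1157 the direction was the other way, with differences of 0.60 for *Ung* and 1.09 for *Exo1*. In mouse PDGF1 it was the other way for *Ung* only, at 0.85, against -0.34 for *Exo1*, with both genes under 1 FPKM in both cells.

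Of the 5 chromatin genes, 3 were lower in the CTC of mouse 1168, and 2 of the 28 genes, both in this group, were lower in 2 mice. The share of all genes lower in 2 mice was not computed, so the 2 are a description only. In tumor cell PDGF1 *Slbp* (1.49 FPKM), and in tumor cell 1168 *Cdca7* (1.30 FPKM), lay under the 99th percentile of the receptor genes (7.02 and 1.52 FPKM). *Slbp* encodes the protein that binds the stem-loop of histone mRNA in S phase. It had 0.799, 0.435 and 0.1 FPKM in the CTCs, against 0.189, 4.43 and 1.49 FPKM in the tumor cells, with differences of 0.60, -1.92 and -1.18. *Cdca7*, which recruits the remodeler HELLS to nucleosomes, had 0.288, 0.126 and 0 FPKM in the CTCs, against 4.72, 1.30 and 0 FPKM in the tumor cells, with differences of -2.15 in mouse 1157 and -1.03 in mouse 1168. *Hells*, the remodeler that maintains DNA methylation, had 6.00, 2.52 and 0.459 FPKM in the CTCs, against 0.514, 2.90 and 0.291 FPKM in the tumor cells, a difference of 0.75 (SE 1.26). *Hells* led the set in the CTC of mouse 1157, with an estimated 876 fragments, where its difference was 2.21, while its partner *Cdca7* was lower in that cell. *Chaf1b*, a subunit of the chromatin assembly factor CAF-1, had 3.90 FPKM in the CTC and 10.3 FPKM in the tumor cell of mouse 1168. *Uhrf1*, which recruits the maintenance methyltransferase to replicated DNA, had 1.27 FPKM and 2.42 FPKM there.

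Fewer of the genes were measured in the other mice. In mouse 1157, 9 of the 28 genes were measured, of which 5 were higher in the CTC (*Hells*, *Pcna*, *Mcm3*, *Exo1* and *Pold3*) and 2 lower (*Rpa2* and *Cdca7*). Over the 5961 genes measured in that mouse, 29.0% were higher and 37.1% lower, against 55.6% and 22.2% of the 9. In mouse PDGF1, 6 were measured, of which *Gmnn* was higher and *Pold3*, *Dtl*, *Slbp* and *Fen1* were lower. Each of these passed the filter only through its higher cell, as did *Hells*, *Mcm3*, *Exo1*, *Pold3* and *Cdca7* in mouse 1157. Their directions therefore follow in part from the filter. In the tumor cell of mouse PDGF1, *Dtl*, *Slbp* and *Fen1* had 1.64, 1.49 and 1.22 FPKM, under the 99th percentile of the receptor genes there (7.02 FPKM). Over the 4042 genes measured there, 23.7% were higher and 59.9% lower, against 16.7% and 66.7% of the 6, which is close to the background. No gene of the set was higher in more than 1 mouse, *Pold3* and *Exo1* were higher in 1 mouse and lower in another, and 15 were not measured outside mouse 1168. Housekeeping transcripts differed between the cells of mouse 1157 as well, summing to 1467 FPKM in the CTC and 27.2 FPKM in the tumor cell, and mitochondrial transcripts in mouse PDGF1, at 27 FPKM in the CTC and 1237 FPKM in the tumor cell. Their part in the values of the replication genes was not tested.

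**Figure D5:**
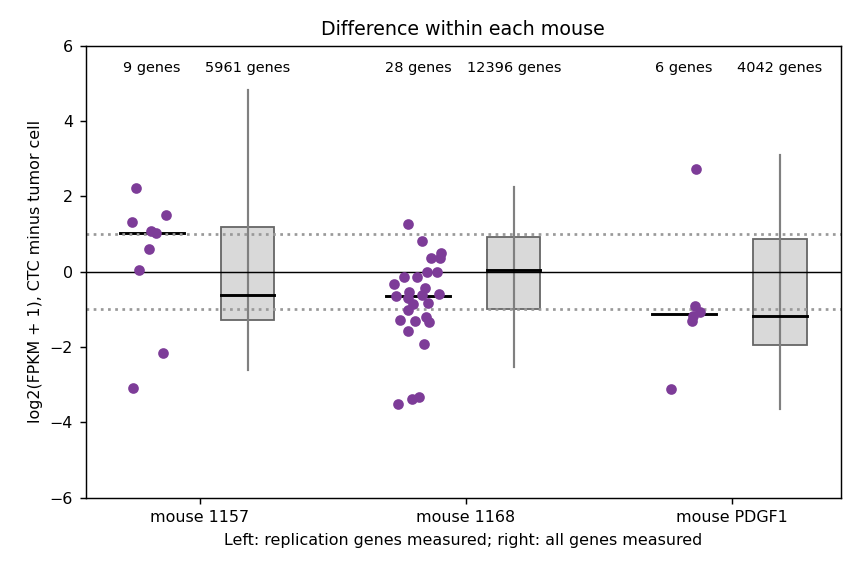
Difference in log2(FPKM + 1), CTC minus tumor cell, in each mouse. Points are the replication genes measured in that mouse, boxes are the middle part of all genes measured there, from the lower to the upper quartile, with lines from the 5th to the 95th percentile, bars are medians, and dotted lines mark a difference of 1. The medians of the replication genes were 1.04, -0.64 and -1.12 in mice 1157, 1168 and PDGF1, and those of all genes -0.62, 0.04 and -1.18.

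Genes of the same pathway outside the set were compared in mouse 1168 with lists drawn up for this purpose, beside the 22.7% of all genes that were higher and the 24.9% that were lower in the CTC. Of 14 other licensing and firing genes measured, 4 were higher and 5 lower in the CTC, and of 23 other fork and polymerase genes 6 were higher and 4 lower. As shares these are 28.6% and 35.7% for licensing and 26.1% and 17.4% for the fork. The lower share of the licensing list, 35.7%, is also that of the replication genes. Its distance from the share of all genes was not tested for either. The lists of nucleotide supply (3 higher and 2 lower of 14) and of replication-coupled chromatin (2 higher and 1 lower of 9) had shares of 21.4% and 14.3% and of 22.2% and 11.1%. Of 20 genes of the E2F, Rb and CDK2 list, 2 were higher (10%) and 6 lower (30%), and of 13 checkpoint genes 1 was higher (7.69%) and 4 lower (30.8%). Mitosis genes had 1 higher (4.76%) and 12 lower (57.1%) of 21, with a median difference of -1.08, and D-type cyclins with their kinases and inhibitors had 3 higher (42.9%) and 0 lower of 7, with a median of 0.77. The replication genes, with a median of -0.64, thus lay between the mitosis list and the D-type cyclin list in this mouse. limma called no gene of any of these lists over the 6 cells.

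Single genes of these lists had low values in all 3 CTCs. *Dbf4*, which activates the kinase CDC7 at origins, had 0.168, 0.144 and 0.580 FPKM in CTCs 1157, 1168 and PDGF1, against 3.25, 7.20 and 1.14 FPKM in the tumor cells, and the difference was -1.71 (SE 1.11). *Ccna2*, which encodes cyclin A2, the cyclin of S phase and G2, had 0.399, 1.63 and 0.0386 FPKM in the CTCs, against 1.91, 18.2 and 1.98 FPKM in the tumor cells, at -1.82 (SE 1.49). *Rbl2*, the retinoblastoma family member of resting cells, had 0.766, 0.137 and 0.0861 FPKM in the CTCs, against 1.13, 3.61 and 1.17 FPKM in the tumor cells, at -1.10 (SE 0.80). *Dsn1*, a kinetochore gene of the mitosis list, had 0.119, 0.0335 and 0.134 FPKM in the CTCs, against 1.88, 9.58 and 1.90 FPKM in the tumor cells, at -2.02 (SE 1.03). In tumor cell PDGF1 all 4 genes lay under the 99th percentile of the receptor genes (7.02 FPKM), as did *Rbl2* in tumor cell 1157 (1.58 FPKM). All 4 differences missed the threshold at an adjusted p of 0.9999 in limma. The groups do not overlap for any of the 4 genes, as for 1.56% of all genes tested. The 4 were taken for having the smallest p in their lists or, for *Ccna2*, the next smallest after *Rbl2*. *Dbf4*, *Rbl2* and *Dsn1* passed the filter only through the 3 tumor cells, so their groups could not overlap. *Ccnd1*, which encodes cyclin D1, the mitogen-induced cyclin upstream of Rb phosphorylation, had 38.7, 244 and 0.0938 FPKM in the CTCs, against 0.144, 25.1 and 0.114 FPKM in the tumor cells, at 2.77 (SE 3.01). It was above the tumor cell of the same mouse in mice 1157 and 1168, whereas *E2f1* was lower in the CTC of mouse 1168 only. *Pold2*, another accessory subunit of polymerase delta, had 108 FPKM in the CTC and 15.5 FPKM in the tumor cell of mouse 1168.

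Markers of other cell types also differed between the cells of mouse 1168. All 11 microglia and macrophage genes measured there, of 12 in the list, were lower in the CTC, where the list summed to 245 FPKM, against 2542 FPKM in the tumor cell. *Aif1* and *C1qa* were listed at 0 in that CTC, and the top gene of the list was *Lyz2*, at 174 FPKM in the CTC and 1202 FPKM in the tumor cell. In the other mice the list summed to 4.36 and 2.17 FPKM in CTCs 1157 and PDGF1, against 11.3 and 25.5 FPKM in the tumor cells. Leukocyte genes summed to 1.31 FPKM in the CTC and 259 FPKM in the tumor cell of mouse 1168, and *Itga2b*, the single platelet marker detected at 1 FPKM or more there, had 68.0 FPKM and 6.09 FPKM. Oligodendrocyte progenitor and glioma markers summed to 582 FPKM in the CTC and 270 FPKM in the tumor cell. Housekeeping genes there had 0 higher and 2 lower of 12 in the CTC, and mitochondrial transcripts 0 higher and 5 lower of 13. The part of these differences, and of the lower depth of the CTC, in the values of the replication genes was not tested. Of the 10 replication genes lower in the CTC of this mouse, 8 had a promoter window and 2 of these held an E2F word (*Cdc6* and *Cdca7*), against 8 of 16 windowed genes among the others. *E2f1* counts here as a gene without a word, though its window lies within the annotated gene and the bases before its outermost start were not scanned.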

How the data were processed

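Each library was made from 1 cell, per the series text. Per the labels' protocols, mRNA was amplified linearly by repeated rounds of cDNA synthesis and in vitro transcription, and stranded libraries were sequenced on an Illumina instrument, so molecules were not counted individually. The deposited values are FPKM, computed by the authors. Aligner and quantifier were STAR 2.4.2a and Cufflinks 2.2.1, on the build GRCm38, per the submitters' processing notes, and the treatment of fragments matching several genes is not stated in the sources used here.

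Of 45038 rows, 27 with a date as name and 211 with a repeated name were left out, 4 of them both. Names were matched to GENCODE M21 for gene class and overlaps (41378 matched). FPKM is not a count, so no count model was used. Where fragments are counted whole, low FPKM values of a gene are multiples of 1 fragment. The most frequent product of FPKM and length was taken as 1 fragment and gave the estimated depth. That this product stands for 1 fragment was not tested. The depth is approximate, ignores isoform assignment, and gave no interval. Values under 1e-06 were treated as 0. A fold within a mouse compares 2 libraries only.

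limma 3.58.1 in R 4.3.3 tested log2(FPKM + 1), with a variance trend, over 4165 genes, two-sided. Fold changes on this scale understate the change of low genes. The mouse pairs the cells, since both came from the same animal; after removing group means, cells of the same mouse correlated at 0.178, 0.689 and 0.428 across genes (mice 1157, 1168 and PDGF1). The CTC of mouse PDGF1 and the tumor cell of mouse 1157 reached 0.422, so the pairing comes from the labels. The step was run on simulated data whose spread was set in advance, so that check does not give its power at the spread of these cells. Python 3.11.15, numpy 2.4.6, pandas 2.3.3 and matplotlib 3.10.9 did the rest. Alternatives were another pseudocount, no filter, quantile normalization, a block, other thresholds and leaving out each cell or mouse.

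The genes and lists were chosen with earlier results of these data known. Values in all 6 cells are given for genes that reached 1 FPKM in 3 or more cells or were lower in 2 mice, and for the highest or lowest of a role; of other lists up to 4 genes of smallest p were eligible. The remaining replication genes are given by values in mouse 1168, and those to name were chosen after their values were seen.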

Additional observations from a re-analysis of the deposited data

How the results depend on the processing

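The count of genes passing limma stayed at 0 in either direction under a pseudocount of 0.1, no filter, quantile normalization and leaving out any cell or mouse. With the mouse as a replicate block it was 1 lower gene, which is not a replication gene, and the block changed no other call. The differences of *Dtl* and *Hells* kept their direction under every alternative but not their size, which ran from -1.32 to -0.28 for *Dtl* and from 0.014 to 1.33 for *Hells* when cells or mice were left out. *Hells* was at 0.20 without the CTC of mouse 1157 and lowest without mouse 1157, and *Dtl* was closest to 0 without the tumor cell and farthest without the CTC of mouse 1168. *Pcna* reversed under quantile normalization (0.16). Leaving out cells or mice in turn, the difference ran from -0.18 to 1.93 for *Gmnn*, -0.99 to 1.68 for *Mcm3*, -1.07 to 1.31 for *Mcm7*, -1.63 to 1.90 for *Pcna*, -1.83 to 0.25 for *Pold3*, -2.40 to 0.079 for *Rpa2* and -1.58 to 0.93 for *Fen1*. For *Mcm3*, *Mcm7*, *Pcna* and *Fen1* the lowest came without the CTC and the highest without the tumor cell of mouse 1168. For *Gmnn* the turn of direction came without mouse PDGF1, for *Pold3* without mouse PDGF1 or its tumor cell alone, and for *Rpa2* without mouse 1157.

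At a level of 5 FPKM, 1 and 12 genes were detected in the CTCs of mice 1157 and 1168, and 1, 18 and 1 in the tumor cells of mice 1157, 1168 and PDGF1. Against the receptor level within a cell, 2 and 1 were detected in the tumor cells of mice 1157 and PDGF1. With a difference of at least 2, 1 gene was higher in mouse 1157, 0 were higher and 3 lower in mouse 1168 (*E2f1*, *Ung* and *Exo1*), and 1 was lower in mouse PDGF1. Centred on the median of all genes, 1 was lower in mouse PDGF1. After quantile normalization, 1 tested gene, *Dtl*, had its CTC values all below its tumor cell values. These changes follow from the stricter threshold or the scaling itself. With 3 cells a group and 1 mouse carrying most of the signal, an absence in the sparse cells is not shown at this yield.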

Other observations

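In the CTC of mouse 1157, 2 cell cycle transcripts outside the set stood far above the replication genes. *Rbbp4*, a histone chaperone of CAF-1 and other complexes, had 371.8 FPKM there, against 2.26 FPKM in the tumor cell of that mouse, and *Ube2c*, the ubiquitin-conjugating enzyme of mitotic exit, had 171.7 FPKM. *Chaf1b*, the CAF-1 partner of *Rbbp4*, was at 0.0718 FPKM in that CTC and at 0.925 FPKM in the tumor cell. These genes were picked after their values were seen.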
